A study of Homo sapiens with 30 samples.

Results

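CYP1A1, CYP1B1 and the antisense RNA gene CYP1B1-AS1 were followed over 30 RNA-seq libraries of HT29, an established line from a human colorectal adenocarcinoma. They are 3 of the 60675 genes in the deposited table and were taken by their symbols. The members were chosen by their deposited counts, for a dose pattern already seen in these data, and their levels, fold changes and order are therefore a description with no test. Cells had been kept for 24 h with a 70% ethanol extract of Banhasasim-tang (2 libraries per dose, replicates 2 and 3), Bojungikgi-tang (3 per dose), Sayeok-tang (3 per dose) or Yijung-tang (1 per dose, replicate 3). These are herbal formulas of Korean medicine. Each extract was given at 20, 100 and 500 µg/mL. The 3 control libraries came from cells given the vehicle, 0.1% DMSO. The labels give no DMSO content for the extract libraries, so whether the solvent was matched is not known. No other treatment or genotype is named for any group, and all rest on 1 cell line. The labels do not say whether replicates came from separate cultures. SDs and p-values therefore cover only the spread between these libraries, which may be technical.

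CYP1A1 and CYP1B1 encode cytochrome P450 enzymes of the CYP1 family, which oxidise polycyclic aromatic hydrocarbons, oestrogens and many plant flavonoids. Their genes are classical targets of the aryl hydrocarbon receptor (AhR). When a planar aromatic ligand enters the cell, AhR leaves its chaperones, pairs with ARNT in the nucleus and binds DNA at xenobiotic response elements (XREs), whose shared core is GCGTG. In the intestine AhR responds to dietary and microbial indoles and to plant compounds, and CYP1A1 breaks down such ligands in turn. AHRR and TIPARP, themselves AhR targets, restrain the receptor.

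CYP1A1 (ENSG00000140465) lies on the minus strand of chromosome 15 at 74719542 to 74725610 (GRCh38), with 3435 bp of merged exons. CYP1B1 (ENSG00000138061) lies on the minus strand of chromosome 2 at 38066973 to 38109902, with 6014 bp. CYP1B1-AS1 (ENSG00000232973), annotated as antisense, lies on the plus strand at 38073447 to 38231651, with 7447 bp. In GENCODE release 29 the antisense gene overlaps CYP1B1 over 36456 bp, of which 678 bp are exonic in both. In RefSeq (GRCh38.p14) the genes of this pair lie 54954 bp apart. The library kit kept strand, but the sources used here do not give the strand setting of the counting. Reads from exons that both genes share therefore cannot be told apart. The expected count of CYP1A1 was whole in 30 of 30 libraries (15 to 4736 counts), and those of CYP1B1 (1901 to 17005) and CYP1B1-AS1 (86.4 to 369.3) were whole in 0 of 30.

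The 250 bases before the transcription start are shown for both members that the RefSeq promoter table (GRCh38.p14) holds, for CYP1A2, the neighbour and closest relative of CYP1A1, and for ALDH1A3, whose profile was most like that of CYP1B1. CYP1B1 was not among the entries. Capitals mark the XRE core GCGTG on either strand (CACGC on the opposite one) and TATAAA on the given strand, each read 5′ to 3′ towards the start.
CYP1A1, chr15:74725529-74725778, minus strand: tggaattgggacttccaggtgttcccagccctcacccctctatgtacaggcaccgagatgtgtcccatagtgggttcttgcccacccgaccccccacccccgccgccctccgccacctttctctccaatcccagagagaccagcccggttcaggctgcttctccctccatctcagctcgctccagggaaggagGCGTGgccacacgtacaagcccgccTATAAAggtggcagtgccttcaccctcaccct
CYP1B1-AS1, chr2:38130855-38131104, plus strand: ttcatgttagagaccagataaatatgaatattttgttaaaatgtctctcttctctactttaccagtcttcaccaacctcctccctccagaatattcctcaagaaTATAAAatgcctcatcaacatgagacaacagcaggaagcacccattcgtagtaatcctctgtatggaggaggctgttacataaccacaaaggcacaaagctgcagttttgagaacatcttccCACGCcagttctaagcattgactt
CYP1A2, chr15:74748595-74748844, plus strand: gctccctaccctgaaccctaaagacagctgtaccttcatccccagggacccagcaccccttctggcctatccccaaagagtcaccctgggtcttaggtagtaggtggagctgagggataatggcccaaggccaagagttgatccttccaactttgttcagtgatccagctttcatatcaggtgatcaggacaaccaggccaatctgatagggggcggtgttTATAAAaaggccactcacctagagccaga
ALDH1A3, chr15:100879581-100879830, plus strand: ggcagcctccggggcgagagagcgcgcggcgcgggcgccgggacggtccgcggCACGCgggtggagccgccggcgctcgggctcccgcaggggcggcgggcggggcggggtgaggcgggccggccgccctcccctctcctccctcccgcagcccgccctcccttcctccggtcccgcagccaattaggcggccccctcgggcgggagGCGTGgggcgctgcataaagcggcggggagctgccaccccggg
The CYP1A1 window held 1 core, 57 to 53 bases before the start, and a TATAAA 32 to 27 bases before it. The CYP1B1-AS1 window, which lies inside the longer GENCODE gene, held 1 core on the opposite strand 24 to 20 bases before the start, and this one also matched the longer TNGCGTG. The CYP1A2 window held 0 cores and the ALDH1A3 window 2. Among all 35116 promoter windows of this length, 32.2% held the core on either strand, 4.5% held TNGCGTG, which contains the core, and 6.8% held TATAAA. A match is a run of letters and not a shown binding site. Bases farther from the start were not searched, so the core counts are not those of the whole regulatory region.

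Total expected counts ranged from 36.274 to 71.626 per library in units of 1000000, with a median of 50.054, so a floor of 3 counts stood at 0.0419 to 0.0827 CPM (counts per 1000000 counts). Levels below are CPM over all counts of a library unless a sentence says per kb. The 6 colon epithelium markers summed to 1359.5 to 1369.571 CPM in the Banhasasim 500 µg/mL libraries and to 1333.106 to 1636.079 CPM in all others. The 8 markers of fibroblasts, vessels and leukocytes summed to 6.128 to 6.439 CPM and 5.659 to 7.176 CPM in the same sets, 5 of the 8 stayed under 1 CPM in every library, and 0 were absent throughout. These sums hide unequal members. Over all libraries the epithelial marker CDX1 held only 0.848 to 1.558 CPM, below CD14 of the other list at 2.724 to 4.731 CPM. The Banhasasim 500 µg/mL libraries stood apart by their mitochondrial ribosomal RNA, 12.862% and 9.408% of counts, against 0.914% to 1.914% elsewhere. In bulk RNA a change in the number of cells with a transcript and a change in RNA per cell cannot be told apart.

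CYP1A1 was low, at under 1 CPM, in vehicle-treated HT29 cells and was higher at each higher dose of Banhasasim. Vehicle libraries held 0.583, 0.349 and 0.350 CPM. Banhasasim libraries at 20 µg/mL held 1.60 and 1.22 CPM, those at 100 µg/mL held 15.7 and 14.5 CPM and those at 500 µg/mL held 89.9 and 85.3 CPM. Each dose lay above the one before it with no overlap, and the lowest dose already lay above every vehicle library. Of all genes tested, 11.1% were higher at 500 than at 20 µg/mL Banhasasim with no overlap. No such share was counted for single dose steps, for single doses against vehicle or between extracts. Separations of that kind are description only, here and for all members below. The group means were 0.427 ± 0.135 CPM for vehicle (SD, n = 3), 1.41 ± 0.268, 15.1 ± 0.846 and 87.6 ± 3.20 CPM for the doses in order (SD, n = 2 each). The 500 µg/mL mean was 204.9 times the vehicle mean, and the log2 fold change, which unlike the CPM is scaled by TMM, was 7.81 ± 0.17 (SE). Between Banhasasim doses it was 3.45 ± 0.17 for 100 over 20 µg/mL and 2.66 ± 0.13 for 500 over 100 µg/mL, so the first 5-fold dose step gave the larger change. With mitochondrial counts removed, the log2 fold change of 500 over 20 µg/mL was 6.11, against 6.12 ± 0.17 with them.

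With the other extracts CYP1A1 covered a much smaller range. Bojungikgi libraries at 20 µg/mL held 0.364, 0.505 and 0.363 CPM, those at 100 µg/mL held 0.956, 0.843 and 0.608 CPM and those at 500 µg/mL held 2.53, 2.88 and 3.03 CPM. The lowest dose overlapped the vehicle libraries and the upper doses did not. Sayeok libraries at 20 µg/mL held 0.365, 0.359 and 0.564 CPM, those at 100 µg/mL held 0.590, 0.634 and 0.720 CPM and those at 500 µg/mL held 1.52, 0.842 and 1.35 CPM. The same held here, with the 500 µg/mL libraries spread most widely. At 100 µg/mL the lowest libraries, 0.608 CPM for Bojungikgi and 0.590 CPM for Sayeok, stood close to the highest vehicle library (0.583 CPM). Their 95% Poisson intervals for counting error, 0.419 to 0.854, 0.406 to 0.828 and 0.377 to 0.860 CPM in this order, overlapped. Between 500 and 20 µg/mL, 7.84% of all genes were higher with no overlap for Bojungikgi and 7.41% for Sayeok. The log2 fold change of 500 over 20 µg/mL was 2.75 ± 0.20 (SE) for Bojungikgi and 1.56 ± 0.25 for Sayeok. In Bojungikgi the upper step was the larger, 1.83 ± 0.18 against 0.91 ± 0.25 for the lower. Sayeok had the same order with closer values, 0.95 ± 0.22 against 0.61 ± 0.27. This was the reverse of the order in Banhasasim, and the difference between extracts was not tested. The single Yijung libraries held 0.305, 0.665 and 0.915 CPM from the lowest to the highest dose, or 15, 29 and 44 counts. Their 95% Poisson intervals, which cover counting error only, were 0.171 to 0.503, 0.445 to 0.955 and 0.665 to 1.23 CPM.

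**Figure D1:**
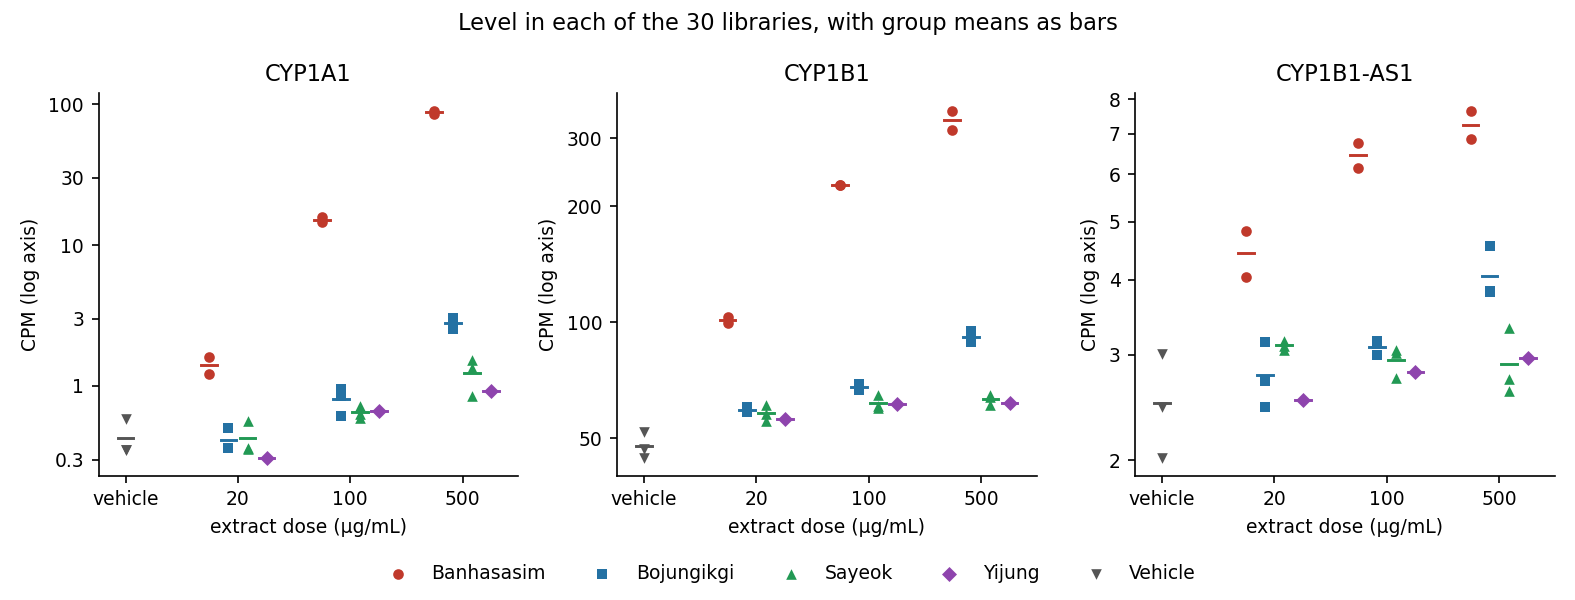
CPM of CYP1A1, CYP1B1 and CYP1B1-AS1 (log axes) by extract dose in µg/mL, with vehicle at the left, 1 point per library and group means as bars. Banhasasim libraries lie above all others at each dose for CYP1B1, and its CYP1A1 runs from 1.41 to 87.6 CPM over the 3 doses while the other extracts stay at or under 3.03 CPM.

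At matched doses the CYP1A1 gap between Banhasasim and Bojungikgi, the next extract at 100 and 500 µg/mL, widened from the lowest dose upward. Sample codes put Banhasasim and Yijung in one series and Bojungikgi and Sayeok in another, so extract and code series cannot be told apart where Banhasasim is set against Bojungikgi or Sayeok, in levels or in dose changes. The Yijung libraries, in the same series as Banhasasim, held at most 0.915 CPM of CYP1A1. For CYP1A1 the log2 fold change of Banhasasim over Bojungikgi was 1.71 ± 0.25 (SE) at 20 µg/mL, 4.24 ± 0.16 at 100 µg/mL and 5.07 ± 0.13 at 500 µg/mL. Bojungikgi over Sayeok was 0.02 ± 0.29 at 20 µg/mL, 0.32 ± 0.23 at 100 µg/mL and 1.20 ± 0.17 at 500 µg/mL. Between these extracts, CYP1A1 libraries did not overlap at 500 µg/mL (2.53 to 3.03 CPM for Bojungikgi, 0.842 to 1.52 CPM for Sayeok). By level, CYP1A1 ran Banhasasim 500, Banhasasim 100, Bojungikgi 500 and Banhasasim 20 µg/mL, each clear of the next. Banhasasim 20 µg/mL overlapped Sayeok 500 µg/mL (1.24 ± 0.353 CPM), and below that point the next group in order mostly overlapped too. Vehicle stood 11th of the 13 groups, between Sayeok 20 µg/mL (0.429 ± 0.117 CPM) and Bojungikgi 20 µg/mL (0.411 ± 0.0818 CPM), and overlapped both.

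CYP1B1 differed from CYP1A1 in having a clear level without any extract. Vehicle libraries held 44.3, 47.0 and 51.9 CPM. Banhasasim libraries at 20 µg/mL held 103.3 and 99.8 CPM, those at 100 µg/mL held 227.5 and 226.3 CPM and those at 500 µg/mL held 314.2 and 353.2 CPM. No dose overlapped another, where 11.1% of all genes were higher at 500 than at 20 µg/mL with no overlap. The 500 µg/mL libraries averaged 333.7 ± 27.6 CPM (SD, n = 2), 6.99 times the vehicle mean of 47.7 ± 3.84 CPM (SD, n = 3). The log2 fold change was 1.03 ± 0.05 (SE) for 20 µg/mL over vehicle, 1.17 ± 0.05 for 100 over 20 µg/mL and 0.68 ± 0.05 for 500 over 100 µg/mL, again with the smaller change over the upper dose step. Without mitochondrial counts the 500 over 20 µg/mL value was 1.84, against 1.85 ± 0.05 with them.

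Every extract library lay above every vehicle library for CYP1B1, including all doses of Sayeok and Yijung. Of all genes tested, 2.16% were higher in all extract libraries in this way. The sample codes set the vehicle apart from all extracts, so extract and code series cannot be told apart in a comparison with it. Bojungikgi libraries at 20 µg/mL held 60.3, 58.6 and 58.9 CPM, those at 100 µg/mL held 68.6, 66.5 and 69.0 CPM and those at 500 µg/mL held 89.0, 94.97 and 90.3 CPM, with no overlap between doses. Sayeok libraries at 20 µg/mL held 61.0, 55.6 and 57.7 CPM, those at 100 µg/mL held 59.7, 64.8 and 60.6 CPM and those at 500 µg/mL held 64.8, 60.9 and 64.0 CPM, and all 3 doses overlapped. The single Yijung libraries held 56.2, 61.2 and 61.9 CPM from the lowest dose up, with Poisson intervals of 54.2 to 58.4, 58.9 to 63.6 and 59.7 to 64.1 CPM. The log2 fold change of 500 over 20 µg/mL was 0.64 ± 0.04 (SE) for Bojungikgi and 0.15 ± 0.04 for Sayeok.

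The order of the groups was not the same for both enzymes. CYP1B1 at 20 µg/mL Banhasasim (101.5 ± 2.497 CPM, SD, n = 2) lay above 500 µg/mL Bojungikgi (91.5 ± 3.12 CPM, n = 3) with no overlap. CYP1A1 had these groups the other way round, 1.41 ± 0.268 CPM with 20 µg/mL Banhasasim and 2.82 ± 0.258 CPM with 500 µg/mL Bojungikgi, also with no overlap. Banhasasim over Bojungikgi at matched doses was 0.77 ± 0.05, 1.74 ± 0.05 and 1.98 ± 0.05 (log2 ± SE) for CYP1B1 from the lowest dose up. Per kb of exon, CYP1B1 stood at 68.3 ± 21.9 times the level of CYP1A1 in vehicle libraries (SD, n = 3). In Banhasasim this ratio was 41.8 ± 6.95 at 20 µg/mL, 8.57 ± 0.445 at 100 µg/mL and 2.18 ± 0.260 at 500 µg/mL (SD, n = 2 each). Over the 24 libraries outside Banhasasim it ranged from 17.0 to 105.2, with the low end in Bojungikgi 500 µg/mL (18.6 ± 1.55, n = 3). CYP1B1 was thus the more abundant transcript in all 30 libraries, by its smallest margin where CYP1A1 was highest.

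CYP1B1-AS1, a noncoding RNA with no enzyme product, followed CYP1B1 at a far lower level and with smaller changes. Vehicle libraries held 2.01, 3.00 and 2.45 CPM. Banhasasim libraries at 20 µg/mL held 4.83 and 4.04 CPM, those at 100 µg/mL held 6.14 and 6.76 CPM and those at 500 µg/mL held 6.86 and 7.65 CPM. The doses did not overlap each other or the vehicle, though 100 and 500 µg/mL came close (log2 fold change 0.30 ± 0.13, SE). Of all genes tested, 11.1% were higher at 500 than at 20 µg/mL Banhasasim with no overlap. No such share was counted for the other pairs of groups. Bojungikgi libraries at 20 µg/mL held 3.14, 2.71 and 2.45 CPM, those at 100 µg/mL held 3.12, 3.15 and 2.99 CPM and those at 500 µg/mL held 4.55, 3.81 and 3.84 CPM, where only the highest dose was clear of the vehicle. Sayeok libraries ranged from 2.60 to 3.33 CPM over all doses and Yijung libraries from 2.52 to 2.96 CPM, without a dose order in Sayeok. The log2 fold change of 500 over 20 µg/mL was 0.85 ± 0.14 (SE) for Banhasasim, 0.57 ± 0.12 for Bojungikgi and -0.08 ± 0.13 for Sayeok.

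Relative to CYP1B1, the antisense RNA was lower at higher doses of Banhasasim. Per 100 CYP1B1 counts there were 5.22 ± 1.02 antisense counts in vehicle libraries (SD, n = 3), 4.36 ± 0.439 at 20 µg/mL Banhasasim, 2.84 ± 0.204 at 100 µg/mL and 2.17 ± 0.014 at 500 µg/mL (SD, n = 2 each). The 24 libraries outside Banhasasim held 4.01 to 6.39, with a median of 4.67, so the 100 and 500 µg/mL Banhasasim libraries lay below all of them. In Bojungikgi at 500 µg/mL, where both genes were higher than in vehicle, the ratio was 4.45 ± 0.575 (n = 3). Whether reads of the overlap were assigned in the same way in each library was not tested.

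**Figure D2:**
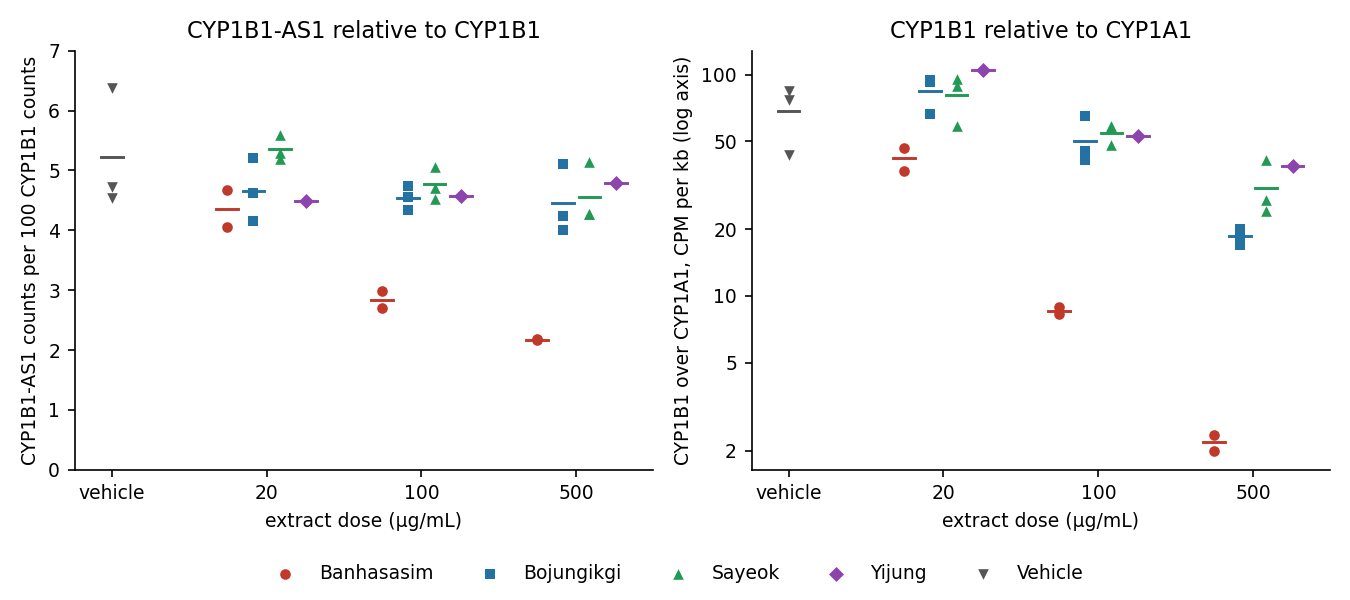
Left, CYP1B1-AS1 counts per 100 CYP1B1 counts; right, CYP1B1 over CYP1A1 in CPM per kb (log axis), by extract dose in µg/mL with vehicle at the left, 1 point per library and group means as bars. Both ratios are lowest in Banhasasim 500 µg/mL, at 2.17 and 2.18.

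The rest of the AhR pathway was read from a list of 18 other genes, of which 15 passed the filter on low counts. CYP1A2, the liver-type CYP1 enzyme whose start lies 23234 bp from that of CYP1A1, did not pass: it was at 0 in 23 libraries and reached 0.187 CPM in the highest. Between 500 and 20 µg/mL, 6 of the 15 rose with Banhasasim and 0 fell (edgeR's quasi-likelihood test at a Benjamini-Hochberg adjusted p under 0.05 over all genes), where 7.82% of all genes were called, 3.82% higher and 4.00% lower. With Bojungikgi 7 rose and 0 fell, where 1.76% of all genes were called, 0.602% higher and 1.16% lower. That count of 7 was 4 to 5 in each of the 6 fits that left out a library and 4 in a fit of only these groups, and calls over all genes were 331 with all libraries and 164 without Bojungikgi 20 µg/mL replicate 2. With Sayeok 5 rose and 0 fell, where 3.18% were called, 1.14% higher and 2.03% lower. The median log2 fold change of the 15 was 0.11, 0.21 and 0.08 for the extracts in this order, and over all genes tested it was at most 0.0049. Members of the list were picked with earlier results of these data known, so their direction is no independent evidence.

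The largest changes among these targets were in aldehyde dehydrogenases. ALDH3A1, which oxidises aromatic and fatty aldehydes, averaged 57.5 ± 1.22 CPM at 500 µg/mL Banhasasim and 21.1 ± 0.440 CPM at 20 µg/mL (SD, n = 2 each), a log2 fold change of 1.58 ± 0.09 (SE; adjusted p = 8.73e-13). It also rose with Bojungikgi, by 0.83 ± 0.07 (adjusted p = 4.98e-08), and with Sayeok, by 1.05 ± 0.07 (adjusted p = 4.76e-10). Its order of extracts, Sayeok above Bojungikgi, was therefore not that of CYP1A1, though the difference between those changes missed the threshold (adjusted p = 0.882). ALDH1A3, which makes retinoic acid, averaged 65.0 ± 3.41 CPM at 500 µg/mL Banhasasim and 27.5 ± 1.45 CPM at 20 µg/mL, a log2 fold change of 1.38 ± 0.07 (adjusted p = 8.03e-14). With Bojungikgi it rose by 0.43 ± 0.06 (adjusted p = 3.69e-05), and with Sayeok its value was 0.04 ± 0.06 (adjusted p = 0.829).

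TIPARP, the ADP-ribosyltransferase that restrains AhR, averaged 181.8 ± 17.6 CPM at 500 µg/mL Banhasasim and 114.9 ± 4.24 CPM at 20 µg/mL, a log2 fold change of 0.80 ± 0.06 (adjusted p = 1.29e-09). It rose by 0.35 ± 0.05 with Bojungikgi (adjusted p = 0.000181) and by 0.27 ± 0.05 with Sayeok (adjusted p = 0.00275), the last not without Sayeok 500 µg/mL replicate 3 (0.21, adjusted p = 0.0513). EREG, a ligand of the EGF receptor, rose by 0.78 ± 0.06 with Banhasasim (adjusted p = 1.29e-09). NQO1, a quinone reductase also driven by NRF2, rose by 0.70 ± 0.07 (adjusted p = 2.06e-07). UGT1A6, a glucuronosyltransferase, rose by 0.55 ± 0.07 (adjusted p = 2.64e-06), but it shares exons with the other UGT1A genes and its count is uncertain. In Bojungikgi EREG (0.22, adjusted p = 0.0178) and NQO1 (0.24, adjusted p = 0.0334) passed with all libraries, but each missed the threshold in 5 of the 6 fits that left out a library, the exceptions being 500 µg/mL replicate 3 for EREG and 500 µg/mL replicate 2 for NQO1. The 7th gene called with Bojungikgi, and the 5th with Sayeok, was the efflux pump ABCG2, named after its values were seen (0.21, adjusted p = 0.0221, and 0.26, adjusted p = 0.00149). With Bojungikgi it too missed the threshold in 5 of the 6 fits that left out a library (adjusted p up to 0.161), the exception being 500 µg/mL replicate 1 (adjusted p = 0.0253), and with Sayeok it passed in all 6.

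Some of these dose changes differed between extracts by a test of the difference itself, chosen after seeing the data. Apart from AHR, ARNT, AHRR and ABCG2, the genes named were picked by their smallest p for the Banhasasim dose change. That change is part of each difference that includes Banhasasim. A large difference was therefore favoured, and these adjusted p are no independent support. Over all genes the change from 20 to 500 µg/mL differed for 2.06% between Banhasasim and Bojungikgi, 1.04% between Banhasasim and Sayeok and 0.0266% between Bojungikgi and Sayeok. ALDH1A3, ALDH3A1, EREG and TIPARP changed more with Banhasasim than with either of the others (adjusted p from 1.56e-10 to 0.00948), and NQO1 more than with Bojungikgi (adjusted p = 0.00648). In a fit of only the groups compared NQO1 missed the threshold (adjusted p = 0.107). ABCG2 missed the threshold in each pair (adjusted p = 0.17, 0.102 and 0.89). Of the list genes named in the text, 0 passed between Bojungikgi and Sayeok, where the smallest adjusted p was 0.145, for ALDH1A3.

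The receptor and its partner did not pass the test between doses. AHR had a log2 fold change of -0.05 ± 0.08 with Banhasasim (SE; adjusted p = 0.794), 0.21 ± 0.07 with Bojungikgi (adjusted p = 0.103) and 0.06 ± 0.07 with Sayeok (adjusted p = 0.789). ARNT, which pairs with it, had -0.12 ± 0.07, -0.10 ± 0.06 and -0.10 ± 0.06, with adjusted p of 0.386, 0.541 and 0.489. AHRR, the repressor, averaged 4.74 ± 0.640 CPM at 500 µg/mL Banhasasim and 5.04 ± 0.169 CPM at 20 µg/mL (SD, n = 2 each), with a log2 fold change of 0.04 ± 0.12 (adjusted p = 0.894). The fold change is TMM-scaled and the CPM are not, their signs differ, and no direction is given for AHRR.

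**Figure D3:**
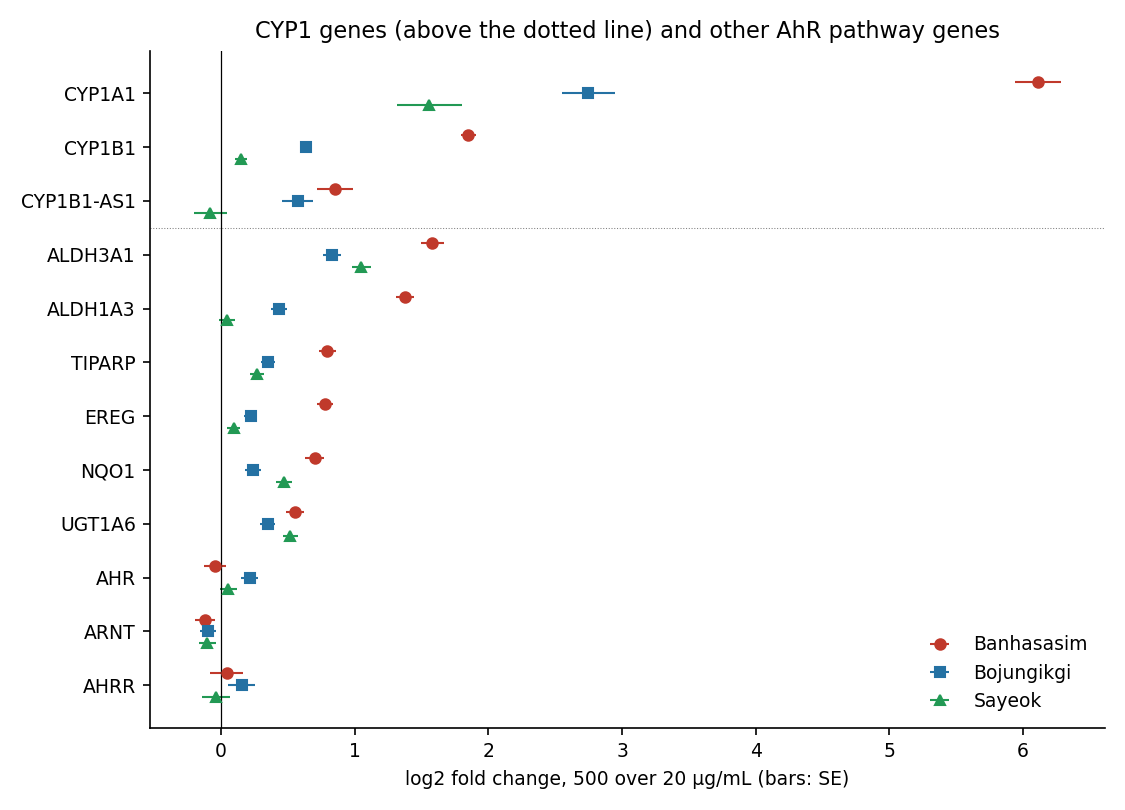
Log2 fold change of 500 over 20 µg/mL for the 3 CYP1 genes, above the dotted line, and for 9 other AhR pathway genes with Banhasasim, Bojungikgi and Sayeok, with SE as bars. CYP1A1 stands out at 6.12 with Banhasasim, while AHR, ARNT and AHRR lie within 0.22 of 0 with each extract.

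Against the vehicle, 9 of the 15 AhR pathway genes were higher with 500 µg/mL Banhasasim and 0 lower, where 15.3% of all genes were called, 8.16% higher and 7.12% lower. That count of 9 was 6 in a fit of only these groups and 7 to 9 with a library left out. With Bojungikgi 7 were higher, where 29.7% were called, 14.3% higher and 15.4% lower. With Sayeok 7 were higher and 0 lower, where 16.6% were called, 8.33% higher and 8.27% lower. ALDH3A1, TIPARP, EREG and UGT1A6 were called higher with each extract. NQO1 with Bojungikgi (0.15 ± 0.06, adjusted p = 0.054) and ALDH1A3 with Sayeok (-0.13 ± 0.06, adjusted p = 0.121) were not called. ALDH3A1 averaged 22.6 CPM in vehicle, and 21.1, 19.0 and 19.1 CPM at 20 µg/mL in this order of extracts. Its change over vehicle (1.42, 0.52 and 0.745) was thus smaller than that between doses. These comparisons share the same 3 vehicle libraries, of which replicate 1 lay farthest from the others (chi-square per gene 32.6 and 37.8). The Banhasasim 500 µg/mL libraries differed more (48.8), as did Bojungikgi 500 µg/mL replicate 2 from its group (40.6 and 48.6). Without vehicle replicate 1 the calls over all genes were 2822 in place of 5580 for Bojungikgi and 1437 in place of 3117 for Sayeok. Without Bojungikgi 500 µg/mL replicate 2 they were 3102 for Bojungikgi. AHR was higher than in vehicle with each extract at 500 µg/mL, by 0.24 ± 0.07 with Banhasasim (adjusted p = 0.0283), 0.50 ± 0.07 with Bojungikgi (adjusted p = 1.34e-05) and 0.34 ± 0.07 with Sayeok (adjusted p = 0.00103). Its highest group mean was thus in Bojungikgi, 156.1 ± 17.4 CPM against 107.1 ± 11.2 CPM in vehicle, not in Banhasasim (119.7 ± 13.4 CPM). For AHR the Banhasasim 500 µg/mL libraries overlapped those of vehicle. Calls of single genes against vehicle were not repeated under other settings or with libraries left out.

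The other P450 genes called between doses with all libraries were CYP4F genes in each extract. Among 54 other P450 symbols, 27 passed the filter, and between 20 and 500 µg/mL 2 of these (7.4%) rose with Banhasasim and 0 fell, a share near the 7.82% called among all genes. With Bojungikgi 1 rose and 0 fell (3.7%, against 1.76% of all genes), and with Sayeok 3 rose and 0 fell (11.1%, against 3.18%). Against the vehicle 5 were higher and 0 lower with 500 µg/mL Banhasasim, where 15.3% of all genes were called, 4 were higher and 0 lower with Bojungikgi (29.7%), and 7 were higher and 2 lower with Sayeok (16.6%). The Banhasasim count was 3 without Banhasasim 500 µg/mL replicate 3, and in fits of only the groups compared it was 3 for Banhasasim and 0 for Bojungikgi. CYP2S1 stands on both this list and the AhR pathway list, and it is counted as higher in both with Banhasasim against vehicle. CYP4F3, a leukotriene hydroxylase, averaged 2.45 ± 0.138 CPM at 500 µg/mL, against 1.34 ± 0.124 CPM at 20 µg/mL (SD, n = 2 each), a log2 fold change of 1.01 ± 0.17 (SE; adjusted p = 0.000205). CYP4F11, a fatty acid and vitamin K hydroxylase, rose by 0.80 ± 0.20 (adjusted p = 0.0131). It missed the threshold without either 500 µg/mL library (adjusted p = 0.0681 and 0.0613) or without replicate 3 at 20 µg/mL (adjusted p = 0.226). CYP4F12 (0.43 ± 0.14, adjusted p = 0.0547) and CYP2B6, a drug-metabolising enzyme (0.30 ± 0.10, adjusted p = 0.0784), did not pass. With Bojungikgi CYP4F3 alone was called (0.63 ± 0.14, adjusted p = 0.0122), not without replicate 1 or 2 at 20 µg/mL or replicate 3 at 500 µg/mL (adjusted p = 0.0578, 0.0623 and 0.0848). With Sayeok CYP4F3 (0.85 ± 0.14, adjusted p = 0.000434), CYP4F11 (1.02 ± 0.17, adjusted p = 0.000627) and CYP4F12 (0.48 ± 0.12, adjusted p = 0.0171) were called, the last not without Sayeok replicate 2 at either dose or replicate 3 at 500 µg/mL (adjusted p = 0.101, 0.132 and 0.105). The CYP4F genes are close copies of each other, and reads could be split between them.

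**Figure D4:**
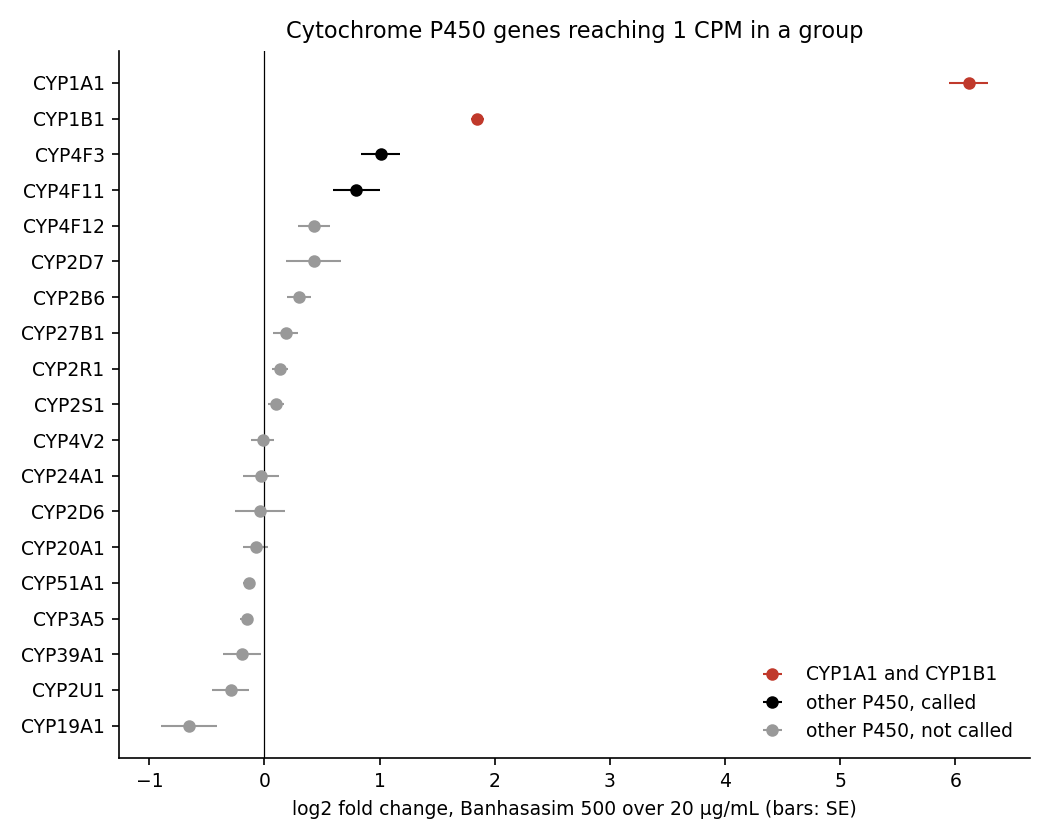
Log2 fold change of Banhasasim 500 over 20 µg/mL, with SE, for CYP1A1, CYP1B1 and the 17 other P450 genes that reached 1 CPM in a group. CYP1A1 (6.12) and CYP1B1 (1.85) lie at the top, CYP4F3 and CYP4F11 are called, and the rest are not.

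P450 enzymes need haem and electrons from the reductase POR. Of 15 genes for haem synthesis, haem breakdown and electron supply, 3 (20%) rose with Banhasasim between 20 and 500 µg/mL and 0 fell, where 7.82% of all genes were called. With Bojungikgi 1 rose (6.7%, against 1.76% of all genes) and with Sayeok 2 rose (13.3%, against 3.18%), and 0 fell with either. HMOX1, which degrades haem, rose by 0.87 ± 0.08 (adjusted p = 6.33e-09). ALAS1, the rate-limiting first enzyme of haem synthesis, averaged 67.0 ± 2.78 CPM at 500 µg/mL, against 51.9 ± 1.33 CPM at 20 µg/mL (SD, n = 2 each), a log2 fold change of 0.50 ± 0.05 (SE; adjusted p = 3.64e-07). FECH, which inserts iron in the last step, rose by 0.47 ± 0.06 (adjusted p = 5.74e-06), while CPOX, an enzyme midway, had 0.16 ± 0.07 (adjusted p = 0.178). With Bojungikgi HMOX1 alone was called (0.38 ± 0.06, adjusted p = 0.00061), and with Sayeok HMOX1 (0.52 ± 0.06, adjusted p = 8.98e-06) and FECH (0.27 ± 0.05, adjusted p = 0.00206). ALAS1 had 0.03 ± 0.05 (adjusted p = 0.808) and 0.14 ± 0.05 (adjusted p = 0.100) with these extracts. Against the vehicle the split was another one. With 500 µg/mL Bojungikgi 7 of the 15 were lower and 3 higher, where 29.7% of all genes were called. That count of 10 was 5 without vehicle replicate 1 or without Bojungikgi 500 µg/mL replicate 2, and 1 in a fit of only these groups. With Banhasasim 5 were higher and 0 lower, where 15.3% were called, and with Sayeok 3 were higher and 1 lower, where 16.6% were called. The Banhasasim count was 3 without vehicle replicate 1 or without Banhasasim 500 µg/mL replicate 2, and the Sayeok count was 7 without vehicle replicate 3.

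The genes whose profile was most like that of each member were found over the 13 group means of log2 CPM among 10705 genes. These correlations are descriptive, since the groups share doses and 1 vehicle and the Banhasasim groups dominate them. For CYP1A1 they were PIM1, a serine/threonine kinase (Pearson r = 0.983), EREG (0.977), SLC22A3, an organic cation transporter (0.977), ADGRF1, an adhesion receptor (0.973), and ALDH1A3 (0.965). Over the 10 groups outside Banhasasim these values were 0.861, 0.810, 0.946, 0.959 and 0.744. For CYP1B1 they were ALDH1A3 (0.987), VIPR1, a receptor for vasoactive intestinal peptide (0.980), EREG (0.977), TIPARP (0.975) and ALDH1A3-AS1 (0.971), and outside Banhasasim 0.742, 0.754, 0.928, 0.831 and 0.866. For CYP1B1-AS1 they were ALDH1A3-AS1 (0.968), ALDH1A3 (0.968), TMCC3 (0.964), VIPR1 (0.962) and TIPARP (0.961), and outside Banhasasim 0.889, 0.725, 0.83, 0.81 and 0.704. ALDH1A3-AS1 is antisense to ALDH1A3, so the limit on strand holds for it too. The members themselves correlated at 0.978 (CYP1A1 with CYP1B1), 0.959 (CYP1A1 with CYP1B1-AS1) and 0.985 (CYP1B1 with CYP1B1-AS1), and at 0.889, 0.852 and 0.929 outside Banhasasim.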

How the data were processed

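Messenger RNA of HT29 cells was sequenced as paired reads of 100 bp. The unit of the deposited table is the expected count of each gene, which the authors estimated with RSEM 1.3.3. Per the submitters' processing notes, reads were handled with STAR 2.7.3a, Trim Galore 0.6.5 and FastQC 0.11.9 on GRCh38. Neither annotation release nor strand setting is stated there. Of 270 columns, 30 were used and 240 were not. Values were rounded, by at most 0.5, since 25.48% of those above 0 were not whole. Such sharing of reads affects overlapping and copied genes most. Symbols were found for 56558 gene IDs (93.21%).

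Groups came from the labels. The control label gives 0.1% DMSO and the series text 2%, and the label was followed. Hot water extracts and wortmannin, named in the series text, were not analysed here. Sample codes put Banhasasim and Yijung in one series and Bojungikgi and Sayeok in another.

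The filter filterByExpr (minimum count 10) left 18783 genes. They were normalised by TMM and fitted with edgeR 4.0.16 under R 4.3.3, with 1 mean per group over 30 libraries (17 residual degrees of freedom, common dispersion 0.00407). Tests were two-sided quasi-likelihood tests, and a call needed an adjusted p (Benjamini-Hochberg) under 0.05. The SE of a log2 fold change is its size divided by the root of its F statistic. The fit was tested on simulated data.

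The members and lists were chosen with earlier results of these data known. Of each list, genes with at least 1 CPM in a group and the smallest p for Banhasasim 500 against 20 µg/mL were named (6 for the AhR pathway, 4 for the others), besides AHR, ARNT, AHRR and TIPARP. The comparison of dose changes between extracts, ABCG2 and the alternatives for P450 and haem counts against vehicle were chosen after seeing the data. Alternatives were RLE scaling, DESeq2 1.42.0, no filter, only the groups compared, mitochondrial counts removed, a replicate block and each library left out. A result for 1 gene of the AhR pathway list is not reported here.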

Additional observations from a re-analysis of the deposited data

Results flagged for a closer look

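The dose change of several AhR pathway and haem genes differed between extracts, by a test of the difference itself (edgeR, 500 over 20 µg/mL in one extract minus the same in the other, two-sided, adjusted over all genes). This test was chosen after seeing the data, and the members were not tested. The genes below were named by their smallest p for Banhasasim 500 against 20 µg/mL, a part of these differences. Large differences were therefore favoured, and the adjusted p are no independent support. Over all genes 2.06% differed between Banhasasim and Bojungikgi, 1.04% between Banhasasim and Sayeok, and 0.0266% between Bojungikgi and Sayeok, which included 0 of the list genes named in the text.

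Banhasasim exceeded Bojungikgi, on the log2 scale, by 0.945 for ALDH1A3 (adjusted p = 8.14e-08), 0.751 for ALDH3A1 (adjusted p = 0.00013), 0.557 for EREG (adjusted p = 9.32e-05) and 0.441 for TIPARP (adjusted p = 0.00244). The difference was 0.461 for NQO1 (adjusted p = 0.00648), 0.489 for HMOX1 (adjusted p = 0.00527), 0.468 for ALAS1 (adjusted p = 0.000198) and 0.322 for FECH (adjusted p = 0.0267). In a fit of only the groups compared, NQO1, HMOX1 and FECH missed the threshold (adjusted p = 0.107, 0.0765 and 0.132). FECH also missed it with no filter on low counts (adjusted p = 0.121). Without Banhasasim 500 µg/mL replicate 2, NQO1, HMOX1 and FECH missed the threshold (adjusted p = 0.0621, 0.0848 and 0.0659). Without Banhasasim 20 µg/mL replicate 2, HMOX1 (adjusted p = 0.0511) and FECH (adjusted p = 0.19) missed it. FECH also missed it without Banhasasim 500 µg/mL replicate 3 (adjusted p = 0.0815), without Bojungikgi 20 µg/mL replicate 1 or 3 (adjusted p = 0.055 and 0.0815) and without Bojungikgi 500 µg/mL replicate 2 (adjusted p = 0.0622).

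Banhasasim exceeded Sayeok by 1.336 for ALDH1A3 (adjusted p = 1.56e-10), 0.682 for EREG (adjusted p = 4.57e-06), 0.529 for TIPARP (adjusted p = 0.000315), 0.531 for ALDH3A1 (adjusted p = 0.00948) and 0.362 for ALAS1 (adjusted p = 0.00511). ALDH3A1 missed the threshold without Banhasasim 500 µg/mL replicate 2 (adjusted p = 0.0884) or Banhasasim 20 µg/mL replicate 3 (adjusted p = 0.0883), and ALAS1 without the last of these (adjusted p = 0.0895). In the Banhasasim 500 µg/mL libraries mitochondrial ribosomal RNA held 12.862% and 9.408% of counts, and its part in these differences was not tested.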

How the results depend on the processing

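The members' 54 log2 fold changes under the 6 alternatives without left-out libraries kept their direction and moved by less than their SE. With each library left out, the 500 over 20 µg/mL change with Banhasasim was 5.91 to 6.30 for CYP1A1, 1.80 to 1.89 for CYP1B1 and 0.72 to 0.98 for CYP1B1-AS1. With Bojungikgi it was 2.63 to 2.95, 0.61 to 0.65 and 0.47 to 0.67, and with Sayeok 1.36 to 1.81, 0.12 to 0.17 and -0.19 to -0.00. Of 60 levels of the members in replicated groups under 2 other scalings, 20 moved by more than the SD, and of 18 Yijung levels 3 left their Poisson interval, mostly on removing mitochondrial counts (CYP1A1 at 500 µg/mL Banhasasim, 102.5 CPM, and 94.84 with TMM).

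Without the filter, 606 genes were called for Bojungikgi between doses, against 331. In fits of only the groups compared, 54 were called there, and 648, 189 and 1264 against vehicle for Banhasasim, Bojungikgi and Sayeok, against 2870, 5580 and 3117. Such fits called 4 AhR pathway, 0 other P450 and 0 haem genes for Bojungikgi between doses, 5 AhR pathway, 0 other P450 and 1 haem gene for it against vehicle, 1 other P450 gene for Banhasasim between doses and 3 other P450 and 3 haem genes for it against vehicle, and fewer libraries enter them. For Banhasasim against vehicle, such a fit called 6 AhR pathway genes, against 9 in the main fit. Without the filter 3 haem genes were called for Banhasasim against vehicle. DESeq2 called 2 other P450 genes for Bojungikgi.

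With libraries left out, all-gene calls between doses were 636 to 1519 (Banhasasim), 164 to 354 (Bojungikgi) and 386 to 445 (Sayeok), and against vehicle 1470 to 3077, 2822 to 6054 and 1437 to 3793. AhR pathway calls were 6, 4 to 5 and 4 to 5 between doses and 7 to 9, 7 to 9 and 7 against vehicle. Other P450 calls were 1 to 2, 0 to 1 and 2 to 4, and haem calls 3 to 4, 1 and 2 to 3. Against vehicle, other P450 calls were 3 to 5, 3 to 6 and 6 to 9, and haem calls 3 to 5, 5 to 10 and 4 to 7. Uncalled changes that reversed were AHR with Banhasasim (-0.127 to 0.024 over left-out libraries), ABCG2 with Banhasasim (-0.05 to 0.026), AHRR with Banhasasim (-0.064 to 0.135) and AHRR with Sayeok (-0.139 to 0.03). The cause was not tested.

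Same-numbered libraries did not deviate together (r of -0.104 to 0.195), so the numbers were not taken as pairs. With the replicate number as a block, 1553, 395 and 623 genes were called between doses and 2753, 5796 and 3423 against vehicle, and CYP1A1 changed by 6.11, 2.74 and 1.56 between doses. For the 13 differences between extracts, 4 of 78 values under the alternatives and 12 of 130 with a library left out missed the threshold. CYP1A1 in vehicle rested on few reads, and Yijung on 1 library per dose.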
